A study of Mus musculus with 16 samples.

Results

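The genes described here are 32 genes of cholesterol synthesis, uptake and efflux, chosen by symbol for their role in the pathway out of the 22322 genes in the tables of both tissues. They comprise 18 enzymes of the synthesis pathway, 4 genes of the sterol sensing machinery, 4 genes of cholesterol transport, uptake and esterification, the nuclear receptor gene Nr1h3, and 5 targets of that receptor. Messenger RNA was sequenced from bulk liver and white adipose tissue of mice with diet-induced obesity. The groups labelled HFD received vehicle, and the groups labelled H100 received halofuginone, an inhibitor of prolyl-tRNA synthetase, by intraperitoneal injection of 100 μg/kg every 2 days for 8 weeks. There were 5 libraries per group from liver and 3 per group from white adipose tissue, called fat below. All 4 groups share the obesity, and no lean group was analysed here. The labels name no strain, age, fat depot or cell type, and they do not tie the livers to the fat samples of the same animals.

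Cells make cholesterol from acetyl-CoA through mevalonate and squalene. The transcription factor SREBP2, encoded by Srebf2, drives nearly every gene of this route. When sterols are low, the escort protein SCAP carries SREBP2 from the endoplasmic reticulum to the Golgi, where it is cut and released to the nucleus. When sterols are high, INSIG1 and INSIG2 hold SCAP back, and Insig1 is itself an SREBP2 target. Surplus cholesterol is esterified by SOAT1 and SOAT2, and its oxidised derivatives activate LXR (LXRα is encoded by Nr1h3), which switches on the exporters ABCA1, ABCG1, ABCG5 and ABCG8 and MYLIP, a ubiquitin ligase that marks lipoprotein receptors for breakdown. The liver is a main site of cholesterol synthesis and of its disposal into bile. Adipocytes store free cholesterol and synthesise comparatively little.

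Promoters were available from RefSeq (build GRCm38.p6) for 25 of the 32 genes, each 300 bases long, from 250 bases before to 50 bases after the start of transcription. The other members, Fdps, Fdft1, Sqle, Stard4, Scarb1, Soat2 and Abcg1, are given by name only. The 4 sequences below are shown because they belong to an enzyme at the start of the pathway, to the gene of the regulator, to the enzyme with the lowest adjusted p in liver and to an LXR target. They lie at chr13:119690101-119690400 (Hmgcs1, plus strand), chr15:82147019-82147318 (Srebf2, plus strand), chrX:72918271-72918570 (Nsdhl, plus strand) and chr4:53159846-53160145 (Abca1, minus strand), and each is written 5′ to 3′ along its gene. Capitals mark matches on either strand to TCACNCCA (the core of a sterol regulatory element, to which SREBP2 binds), to CCAAT (bound by NF-Y, a partner of SREBP2; read as ATTGG on the other strand) and to the LXR repeat, 2 copies of GGTCA or GGTTA with 5 bases between them.
Hmgcs1: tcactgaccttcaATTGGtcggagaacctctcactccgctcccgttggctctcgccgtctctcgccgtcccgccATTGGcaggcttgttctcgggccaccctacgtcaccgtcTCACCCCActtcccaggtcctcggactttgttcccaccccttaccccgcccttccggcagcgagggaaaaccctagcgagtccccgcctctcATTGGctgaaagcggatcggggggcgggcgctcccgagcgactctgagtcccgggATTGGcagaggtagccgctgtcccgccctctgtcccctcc
Srebf2: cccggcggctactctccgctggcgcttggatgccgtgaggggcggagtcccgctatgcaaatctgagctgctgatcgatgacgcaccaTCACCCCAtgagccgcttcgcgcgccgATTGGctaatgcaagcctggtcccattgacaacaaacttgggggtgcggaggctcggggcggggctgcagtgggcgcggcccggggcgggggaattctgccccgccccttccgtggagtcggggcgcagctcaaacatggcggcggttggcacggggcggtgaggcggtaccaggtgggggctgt
Nsdhl: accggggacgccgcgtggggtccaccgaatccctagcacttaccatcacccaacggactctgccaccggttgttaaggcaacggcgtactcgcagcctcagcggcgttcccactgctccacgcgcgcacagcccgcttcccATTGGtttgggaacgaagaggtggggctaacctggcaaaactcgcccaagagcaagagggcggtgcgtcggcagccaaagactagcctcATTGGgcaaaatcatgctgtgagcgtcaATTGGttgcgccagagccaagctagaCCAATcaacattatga
Abca1: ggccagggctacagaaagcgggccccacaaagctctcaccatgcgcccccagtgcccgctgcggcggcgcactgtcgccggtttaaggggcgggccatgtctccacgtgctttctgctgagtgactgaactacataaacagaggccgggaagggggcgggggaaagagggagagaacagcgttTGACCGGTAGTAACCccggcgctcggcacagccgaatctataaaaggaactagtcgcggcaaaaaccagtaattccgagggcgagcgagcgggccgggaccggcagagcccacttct

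The core TCACNCCA was present in 3 of the 17 SREBP2 targets with a promoter (17.6%), namely Hmgcs1, Msmo1 and Srebf2, and in 4.97% of all 27025 genes with a promoter. CCAAT was present in 16 of the 17 (94.1%) and in 41.1% of all genes, and GGGCGG, the core bound by Sp1, in 16 of the 17 (94.1%) and in 38.2% of all genes. The Hmgcs1 promoter carried both the core and several CCAAT copies, whereas that of Nsdhl carried CCAAT copies and no core. The LXR repeat was present in 1 of the 4 LXR targets with a promoter, Abca1, and in 0.241% of all genes. These matches describe letters in a short window and are not evidence of binding. Of the SREBP2 targets, 1 of the 3 with the core and 9 of the 14 without it were called lower in liver by the test described next, as were 10.5% of all genes tested. The median log2 fold changes of these 2 sets in liver were close, at -0.75 with the core and -0.73 without it.

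Values per library are CPM, that is, counts scaled to a common library size adjusted by the trimmed mean of M-values (TMM). Log2 fold changes are halofuginone over vehicle, each with its standard error (SE). Called genes are those with an adjusted p under 0.05 in edgeR's quasi-likelihood test, where the Benjamini-Hochberg procedure ran over all genes tested in the tissue. Libraries held 20309956 to 31980683 counts in liver and 17070614 to 21387799 in fat. The labels do not say that the libraries of a group came from separate animals, so the p-values measure the spread between these libraries. In bulk tissue, fewer cells of a type and less RNA per cell cannot be told apart. Halofuginone liver 1 stood apart from the other 4 halofuginone livers. Over 7 genes of the amino acid response that halofuginone is known to switch on (Asns, Trib3, Ddit3, Chac1, Fgf21, Atf4 and Eprs), its mean log2 level lay 0.28 above the vehicle mean, within the vehicle range of -0.21 to 0.38, while halofuginone livers 2 to 5 lay 2.88 to 3.16 above it. Within the 7 genes, this library was above every vehicle liver for Asns (6.71 CPM against 0.317 to 1.35), Fgf21 (22.3 against 5.41 to 17.3) and Trib3 (5.96 against 2.76 to 5.73). It was below every vehicle liver for Ddit3 (3.73 CPM against 4.67 to 12.0) and Chac1 (1.29 against 2.26 to 4.66). Where this library lay apart for a named cholesterol gene that the test called, the value without it is given too. The 8 hepatocyte markers summed to 117400 to 130500 CPM in vehicle livers and 43490 to 108900 CPM under halofuginone, with 108900 CPM in halofuginone liver 1. Alb made up most of this sum, with means of 94150 CPM in vehicle and 51780 CPM under halofuginone, and was not called (edgeR adjusted p = 0.0742). Of the 8, 3 were called lower and 1, Tat, higher, and the part of the list in the results was not tested. The 8 adipocyte markers summed to 69.7 to 145.6 CPM in vehicle livers and 23.48 to 73.59 CPM in halofuginone livers, with Adipoq, Plin1, Lep and Retn at or under 3 counts in every liver. Of the 4 tested, 3 were called lower, Cfd, Fabp4 and Lipe, and the part of this list in the results was not tested.

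In liver, cholesterol synthesis genes were lower under halofuginone. Of the 21 SREBP2 targets (the 18 enzymes with Insig1, Stard4 and Srebf2), 20 had a negative log2 fold change and 12 passed the test, all 12 lower. Their median log2 fold change was -0.75, against 0.02 over the 12311 genes tested, of which 10.5% were called lower. Of the LXR targets, 0 of 5 passed the test, and their median was -0.05. At an unadjusted p under 0.05 there was 1 of the 5, against 4813 of all 12311 genes tested. Without halofuginone liver 1, 13 of the 21 SREBP2 targets were called lower with a median of -0.68, when 21.6% of all genes tested were called lower, and the LXR median was -0.14. Leaving out vehicle liver 2, vehicle liver 5 or halofuginone liver 3 left 6 of the 21 called lower, and leaving out halofuginone liver 4 left 7. Calls fell over the whole table too in these fits, where 5.82%, 6.64%, 4.66% and 7.18% of all genes tested were called lower, in that order. DESeq2 called 14 of the 21 SREBP2 targets lower, where it called 14.1% of all genes tested lower, and 1 of 5 LXR targets.

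The route opens with 7 enzymes that lead from acetyl-CoA to farnesyl diphosphate, of which 4 were called lower. Acat2, which joins acetyl-CoA units to acetoacetyl-CoA, was at 28.1, 33.3, 24.0, 29.9 and 33.6 CPM in vehicle livers 1 to 5 and at 25.1, 15.7, 12.1, 17.4 and 15 CPM in halofuginone livers 1 to 5. Only halofuginone liver 1 reached the vehicle range, and the log2 fold change was -0.81 (SE 0.177, edgeR adjusted p = 0.0124), or -1.01 without that library. Hmgcs1, which makes HMG-CoA from acetoacetyl-CoA, was at 81.4, 82.4, 92.1, 62.4 and 145 CPM in vehicle and 40.9, 59.9, 68.2, 39.2 and 68.3 CPM under halofuginone. Its groups overlapped at vehicle liver 4, with 3 of 5 halofuginone livers below every vehicle liver (log2 fold change -0.75, SE 0.235, edgeR adjusted p = 0.0413). Pmvk, the kinase that adds the second phosphate to mevalonate, was at 11.8, 12.5, 7.22, 10.4 and 12.7 CPM in vehicle and 5.42, 7.05, 6.26, 9.07 and 8.12 CPM under halofuginone. Here vehicle liver 3 lay among the halofuginone livers (log2 fold change -0.60, SE 0.179, edgeR adjusted p = 0.0333).

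Idi1, the isomerase that supplies the allylic building block of the isoprenoid chain, had the largest fall of the synthesis enzymes in liver. It was at 60.9, 73.1, 74.8, 32.8 and 125 CPM in vehicle and 19.1, 24.1, 26.3, 14.9 and 40.9 CPM under halofuginone. Vehicle liver 4 was below halofuginone liver 5, and the other 4 vehicle livers were above all 5 (log2 fold change -1.55, SE 0.338, edgeR adjusted p = 0.0125). The 3 other early enzymes did not pass the test. Mvd, which decarboxylates mevalonate diphosphate, had a log2 fold change of -0.89 (edgeR, SE 0.406, adjusted p = 0.128) with vehicle livers between 3.96 and 12.8 CPM. Mvk, the first mevalonate kinase, had -0.22 (SE 0.243) and Fdps, the farnesyl diphosphate synthase, -0.21 (SE 0.471). Fdps was spread more widely under halofuginone, from 18.1 CPM in liver 1 to 108 CPM in liver 3, than in vehicle, from 38.4 to 100.4 CPM.

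Of the 11 enzymes from squalene to cholesterol, 6 were called lower in liver. The groups did not overlap for Nsdhl, Tm7sf2 and Ebp, which are 3 of the 32 genes, and 6.55% of all genes tested were lower without overlap. Nsdhl, a dehydrogenase that takes part in removing the methyl groups at carbon 4, was at 11.2, 18.7, 13.2, 10.5 and 21.0 CPM in vehicle and 5.07, 3.43, 5.01, 5.59 and 7.22 CPM under halofuginone. All 5 halofuginone livers were low, and the mean went from 14.9 ± 4.69 to 5.26 ± 1.36 CPM (SD, n = 5) (log2 fold change -1.50, SE 0.236, edgeR adjusted p = 0.00426). Tm7sf2, a sterol reductase of the ring, was at 44.3, 74.7, 41.6, 48.4 and 65.9 CPM in vehicle and 38.2, 16.6, 30.9, 26.7 and 38.6 CPM under halofuginone. The lowest vehicle and highest halofuginone livers were close, at 41.6 and 38.6 CPM (log2 fold change -0.87, SE 0.235, edgeR adjusted p = 0.0252). Ebp, the sterol isomerase, was at 160.3, 162, 144, 151 and 165 CPM in vehicle and 128, 117, 107, 111 and 96.5 CPM under halofuginone. Ebp had the smallest spread of the 21 SREBP2 targets in both groups of livers (5.59% of the mean in vehicle), and its log2 fold change of -0.48 had an SE of 0.0978 (edgeR adjusted p = 0.0101).

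Cyp51, the demethylase that acts on lanosterol, was at 65.4, 104, 99.0, 45.3 and 127 CPM in vehicle and 35.6, 31.7, 40.9, 27.9 and 58.5 CPM under halofuginone. Vehicle liver 4 was below halofuginone liver 5 only (log2 fold change -1.18, SE 0.276, edgeR adjusted p = 0.0158). Fdft1, the squalene synthase that commits the route to sterols, was at 54.7, 69.0, 53.5, 65.4 and 99.8 CPM in vehicle and 55.3, 26.8, 35.3, 33.0 and 47.7 CPM under halofuginone. Halofuginone liver 1 lay inside the vehicle range and the other 4 below it (log2 fold change -0.79, SE 0.220, edgeR adjusted p = 0.0275), and without it the value was -0.96. Dhcr7, the reductase that turns the last precursor into cholesterol, was at 18.9, 18.6, 14.6, 17.03 and 29.7 CPM in vehicle and 8.89, 15.8, 12.9, 10.2 and 15.1 CPM under halofuginone. Halofuginone livers 2 and 5 were above vehicle liver 3, and the log2 fold change was -0.65 (SE 0.209, edgeR adjusted p = 0.0435).

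The other ring enzymes did not pass edgeR's test in liver with all 10 libraries. Msmo1, the methylsterol oxidase, had a log2 fold change of -0.88 (edgeR, SE 0.326, adjusted p = 0.0698) and Sc5d, a sterol desaturase, -0.30 (SE 0.117, edgeR adjusted p = 0.0838). DESeq2 called both lower, and Sc5d was also called without halofuginone liver 1 (log2 fold change -0.40, edgeR adjusted p = 0.00642). Hsd17b7, a reductase that acts in the same demethylation as Nsdhl, had -0.24 (SE 0.183). Sqle, the squalene epoxidase and a rate-limiting step, had -0.20 (SE 0.540). Its level was 4.97 CPM in halofuginone liver 1 and 20.02 to 67.1 CPM in the other 4, against 15.9 to 71.3 CPM in vehicle, and without halofuginone liver 1 the value of Sqle was 0.06. Lss, which closes the lanosterol ring, was the 1 SREBP2 target with a positive value, 0.07 (SE 0.210). Squalene epoxidation and ring closure thus lay between called enzymes on both sides of the route without passing the test themselves.

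**Figure D1:**
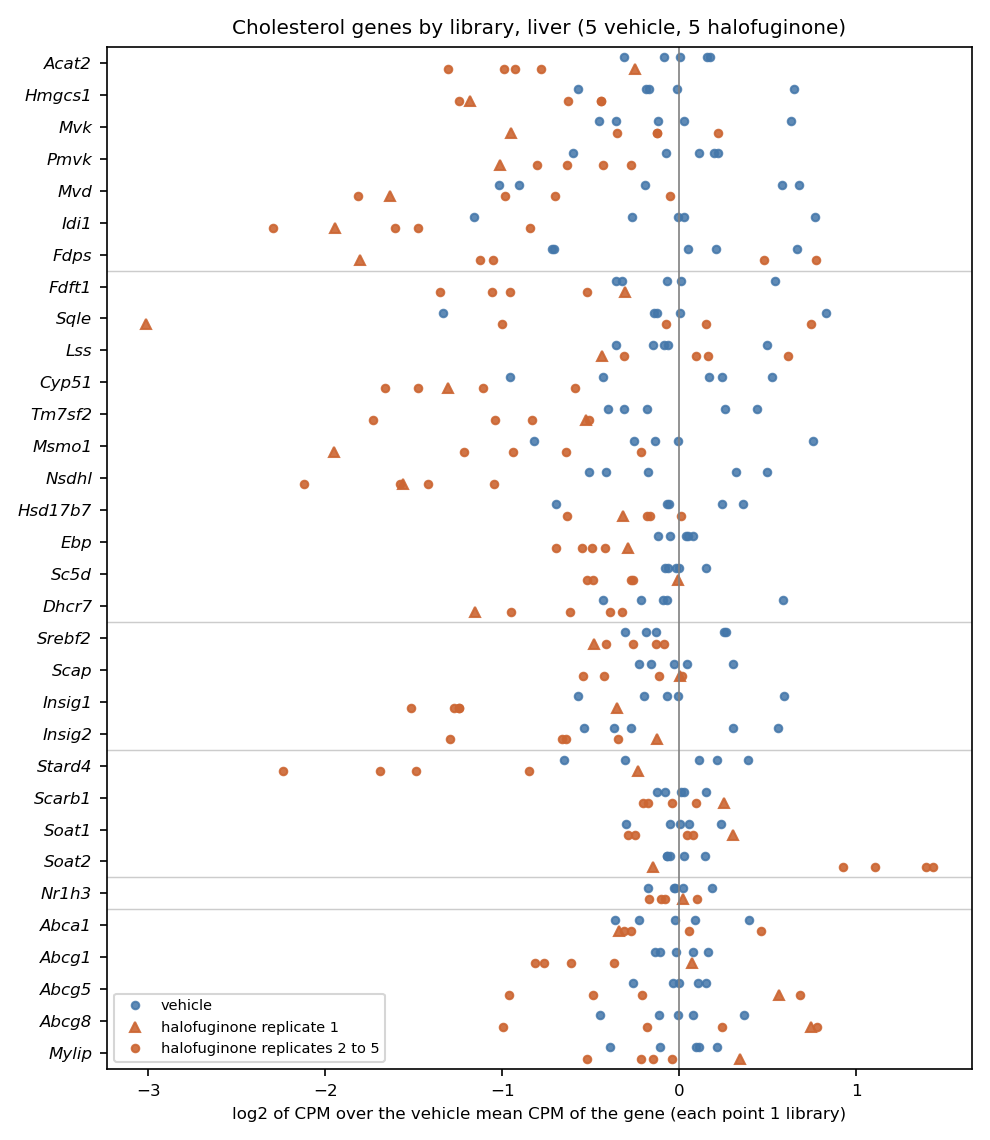
Each point is 1 liver library, placed on the x axis by the log2 of its CPM over the vehicle mean CPM of the gene, with genes in rows by role (grey lines separate early enzymes, ring enzymes, regulators, transport and esterification, Nr1h3 and LXR targets). Most halofuginone points of the synthesis enzymes lie left of 0, those of Soat2 lie right of it except in halofuginone liver 1 (triangle), and those of the LXR targets lie on both sides.

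Libraries of the same group also differed from each other in much of the list. Vehicle liver 5 was the highest vehicle liver in 18 of the 21 SREBP2 targets, and vehicle liver 4 was the lowest in 13 of the 21. Averaged over the 21 genes, the log2 level relative to the vehicle mean was -0.14, 0.11, -0.07, -0.42 and 0.51 in vehicle livers 1 to 5. It was -0.86, -0.82, -0.59, -0.86 and -0.28 in halofuginone livers 1 to 5. Halofuginone liver 5 thus lay inside the vehicle range, and the other 4 lay below it. Halofuginone liver 1, which stood at the vehicle level for the amino acid response, was as low as halofuginone liver 4 in this average. The same average over the 5 LXR targets was -0.11 to 0.07 in vehicle livers, and 0.28, -0.43, -0.32, 0.09 and -0.13 in halofuginone livers 1 to 5. Halofuginone livers lay on both sides of the vehicle range there.

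The regulators of the pathway differed among themselves. Insig1, whose protein retains SCAP, was at 90.1, 86.4, 78.8, 61.0 and 136 CPM in vehicle livers and at 71.0, 31.7, 38.2, 38.2 and 37.5 CPM in halofuginone livers. Halofuginone livers 2 to 5 sat close together below every vehicle liver, and liver 1 lay inside the vehicle range. Insig1 fell by 1.07 on the log2 scale (SE 0.249, edgeR adjusted p = 0.0156), and without halofuginone liver 1 it fell by 1.34 (edgeR adjusted p = 0.000437). Insig2, the isoform that is not driven by SREBP2 in liver, was at 245, 138, 206, 115 and 129 CPM in vehicle and 153, 107, 131, 105 and 68.0 CPM under halofuginone. Its groups overlapped and the log2 fold change of -0.56 (SE 0.250) did not pass the test (edgeR adjusted p = 0.120), although it did without halofuginone liver 1.

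Srebf2 was at 51.1, 38.7, 37.3, 34.4 and 50.7 CPM in vehicle and 30.4, 38.7, 35.4, 31.8 and 40.0 CPM under halofuginone, with overlap (log2 fold change -0.27, SE 0.133, edgeR adjusted p = 0.160). Scap was at 71.3, 103, 86.1, 81.9 and 74.8 CPM in vehicle and 83.7, 57.2, 62.1, 76.9 and 84.5 CPM under halofuginone, also with overlap (log2 fold change -0.19, SE 0.140, edgeR adjusted p = 0.323). Neither the factor's own transcript nor that of its escort passed the test. The protein and its cleavage were not measured.

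Among the genes of transport and esterification, 1 was lower and 1 higher in liver. Stard4, which carries cholesterol between membranes, was at 57.6, 119, 105, 73.2 and 97.9 CPM in vehicle and 77.2, 19.2, 28.1, 32.3 and 50.3 CPM under halofuginone. Halofuginone liver 1 was again inside the vehicle range, and the other 4 were below it (log2 fold change -1.13, SE 0.340, edgeR adjusted p = 0.0354). Without that library the value was -1.50 (edgeR adjusted p = 0.00174).

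Soat2, the acyltransferase that esterifies cholesterol in hepatocytes and enterocytes, was the 1 of 32 genes called higher in liver, where 12.7% of all genes tested were called higher. It was at 15.3, 16.4, 15.5, 17.8 and 15.3 CPM in vehicle and at 14.5, 34.6, 30.6, 43.4 and 42.4 CPM under halofuginone. Vehicle livers were within a narrow range, halofuginone livers 2 to 5 were all above it, and halofuginone liver 1 was below it. Soat2 rose from 16.1 ± 1.07 to 33.1 ± 11.7 CPM (SD, n = 5) (log2 fold change 1.04, SE 0.236, edgeR adjusted p = 0.0140). Without halofuginone liver 1 the log2 fold change was 1.21 (edgeR adjusted p = 2.56e-05). Soat1, the more widely expressed isoenzyme, stayed between 5.74 and 8.34 CPM in vehicle and 5.80 and 8.74 CPM under halofuginone. Scarb1, the receptor that takes up cholesteryl ester from high-density lipoprotein, was at 122 to 149 CPM in vehicle and 116 to 159 CPM under halofuginone. Neither Soat1 nor Scarb1 passed the test, and their fitted log2 fold changes were close to 0, slightly negative with TMM and positive when library size alone set the scale.

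Nr1h3 and the 5 LXR targets among the 32 genes did not pass edgeR's test in liver with all 10 libraries. Nr1h3 itself was at 81.3, 80.8, 73.1, 93.7 and 83.7 CPM in vehicle and 84.0, 73.2, 76.7, 88.6 and 78.0 CPM under halofuginone (log2 fold change -0.04, SE 0.0923). Abca1, which loads cholesterol onto apolipoprotein A-I, was at 178, 193, 237, 155 and 141 CPM in vehicle and 143, 249.2, 149, 146 and 188 CPM under halofuginone (log2 fold change -0.05, SE 0.188). The groups overlapped for both genes, with halofuginone liver 2 above every vehicle liver for Abca1. Mylip was at 14.9, 17.3, 12.2, 17.1 and 18.6 CPM in vehicle and 20.3, 11.2, 13.8, 15.6 and 14.5 CPM under halofuginone (log2 fold change -0.09, SE 0.161). The signs of these 3 values turn positive under scaling by library size alone. That scaling moved the median of all genes tested in liver from 0.02 to 0.17.

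Abcg5 and Abcg8, whose products pair to pump sterols into bile, varied together across libraries and more under halofuginone than in vehicle. Abcg5 was at 41.1, 36.2, 37.0, 30.9 and 39.9 CPM in vehicle and 54.8, 19.0, 26.4, 59.4 and 31.9 CPM under halofuginone. Abcg8 was at 49.0, 46.3, 34.0, 42.9 and 59.9 CPM in vehicle and 77.9, 23.3, 41.0, 79.7 and 54.8 CPM under halofuginone. In both genes halofuginone livers 1 and 4 were above every vehicle liver and halofuginone liver 2 was below every vehicle liver. Their log2 fold changes of 0.05 (SE 0.271) and 0.25 (SE 0.289) had standard errors too wide to show a shift of the mean. Abcg1, the exporter most active in macrophages, was at 9.47, 7.71, 8.95, 7.84 and 8.36 CPM in vehicle and 8.89, 6.56, 5.55, 4.82 and 4.99 CPM under halofuginone. Halofuginone livers 2 to 5 were below every vehicle liver, and halofuginone liver 1 was inside the vehicle range. The log2 fold change of -0.46 (SE 0.166) did not pass the test (edgeR adjusted p = 0.0626) with all 10 livers, and was -0.65 (edgeR adjusted p = 0.00160) without halofuginone liver 1. The 8 macrophage markers, none of them called in liver, summed to 356 to 459 CPM in vehicle livers and 321 to 625 CPM under halofuginone, with 625 CPM in halofuginone liver 1, and their part in the Abcg1 result was not tested.

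The liver calls differed in how firmly they held. Acat2, Cyp51, Ebp, Idi1, Insig1, Nsdhl and Soat2 were called under all 21 alternative settings run for liver, which include leaving out each library. The call was lost for Hmgcs1 in 13 of the 21, for Pmvk and Dhcr7 in 12, for Stard4 in 9, for Fdft1 in 7 and for Tm7sf2 in 6, each with the same sign. Calls over all genes also fell, from 2850 to between 1275 and 1921 when any library except halofuginone liver 1 was left out. With library size alone as the scale, the median of all liver genes moved from 0.02 to 0.17. It left 9 of the 12 lower calls, when 6.81% of all genes tested were called lower. It moved the median of the SREBP2 targets to -0.57 and that of the LXR targets to 0.12.

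In fat, no gene passed edgeR's adjusted threshold (0% of 14030), with 1881 genes at an unadjusted p under 0.05, and 0 of the 30 members tested did so. DESeq2 called 723 genes, 5.15% of those tested, and 7 of them were members. The SREBP2 targets had negative log2 fold changes in 19 of 21 genes, with a median of -0.40 against 0.01 over all genes tested. At an unadjusted p under 0.05, 8 of the 21 were lower, where 7.91% of all genes were lower, and 2 members, Soat2 and Abcg1, were higher, where 5.50% of all genes were higher. In 9 of the 21 every halofuginone library lay below every vehicle library, against 10.4% of all genes tested. Averaged over the 21 genes, the log2 level relative to the vehicle mean was -0.06, 0.04 and 0.02 in vehicle fat 1 to 3 and -0.59, -0.41 and -0.31 in halofuginone fat 1 to 3, without overlap.

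Most of the low p-values were among the ring enzymes. All 11 enzymes from squalene to cholesterol had negative values (median -0.61), and 6 were lower at an unadjusted p under 0.05, against 1 of the 7 early enzymes. Nsdhl was at 30.5, 38.0 and 26.2 CPM in vehicle fat 1 to 3 and at 11.5, 13.8 and 15.2 CPM in halofuginone fat 1 to 3. The groups lay well apart, with a log2 fold change of -1.22 and an SE of 0.200, but edgeR's adjusted p was 0.120, and DESeq2's was 2.00e-05. Dhcr7 was at 23.7, 19.9 and 30.4 CPM in vehicle and 7.53, 11.5 and 14.9 CPM under halofuginone (log2 fold change -1.12, SE 0.290, edgeR adjusted p = 0.210). Tm7sf2 was at 4.497, 4.38 and 5.20 CPM in vehicle and 2.32, 2.46 and 2.74 CPM under halofuginone (log2 fold change -0.90, SE 0.275, edgeR adjusted p = 0.263).

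Sqle and Lss, with small values in liver, did not overlap between the groups in fat. Sqle was at 13.6, 21.0 and 30.3 CPM in vehicle and 11.1, 12.2 and 13.3 CPM under halofuginone (log2 fold change -0.83, SE 0.295, edgeR adjusted p = 0.314). Lss was at 18.2, 20.1 and 18.8 CPM in vehicle and 12.8, 10.8 and 13.8 CPM under halofuginone (log2 fold change -0.61, SE 0.164, edgeR adjusted p = 0.220). The vehicle spread of Lss was small, at 5.28% of its mean, whereas that of Sqle was 38.9%. Fdft1 was at 46.7, 59.4 and 32.8 CPM in vehicle and 29.4, 25.3 and 31.4 CPM under halofuginone (log2 fold change -0.69, SE 0.236, edgeR adjusted p = 0.301), with vehicle fat 3 just above the halofuginone range. Cyp51 was at 29.8, 35.1 and 49.98 CPM in vehicle and 23.4, 31.0 and 27.8 CPM under halofuginone, and Ebp at 44.6, 45.0 and 40.6 CPM and 35.2, 33.8 and 43.6 CPM. Both of these overlapped, with log2 fold changes of -0.48 (SE 0.229) and -0.21 (SE 0.155).

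Early enzymes were less uniform in fat. Fdps was at 26.9, 35.2 and 33.9 CPM in vehicle and 18.8, 18.1 and 22.5 CPM under halofuginone, the 1 early enzyme without overlap (log2 fold change -0.69, SE 0.173, edgeR adjusted p = 0.208). Hmgcs1 went the other way from most of the list, at 174, 106 and 154 CPM in vehicle and 124, 367 and 308 CPM under halofuginone. Halofuginone fat 2 and 3 were above every vehicle library and fat 1 was not, and the log2 fold change of 0.88 (SE 0.408) did not pass the test (edgeR adjusted p = 0.407). Acat2 was at 34.7, 54.3 and 26.3 CPM in vehicle and 42.5, 29.2 and 46.7 CPM under halofuginone (log2 fold change 0.04, SE 0.306). Idi1, with the largest fall in liver, was at 31.1, 19.1 and 37.5 CPM in vehicle fat and 22.1, 26.8 and 26.8 CPM under halofuginone (log2 fold change -0.21, SE 0.258). Pmvk was at 26.7, 31.6 and 17.4 CPM in vehicle and 22.9, 14.97 and 20.2 CPM under halofuginone (log2 fold change -0.38, SE 0.268). Acat2, Idi1 and Pmvk thus overlapped in fat.

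**Figure D2:**
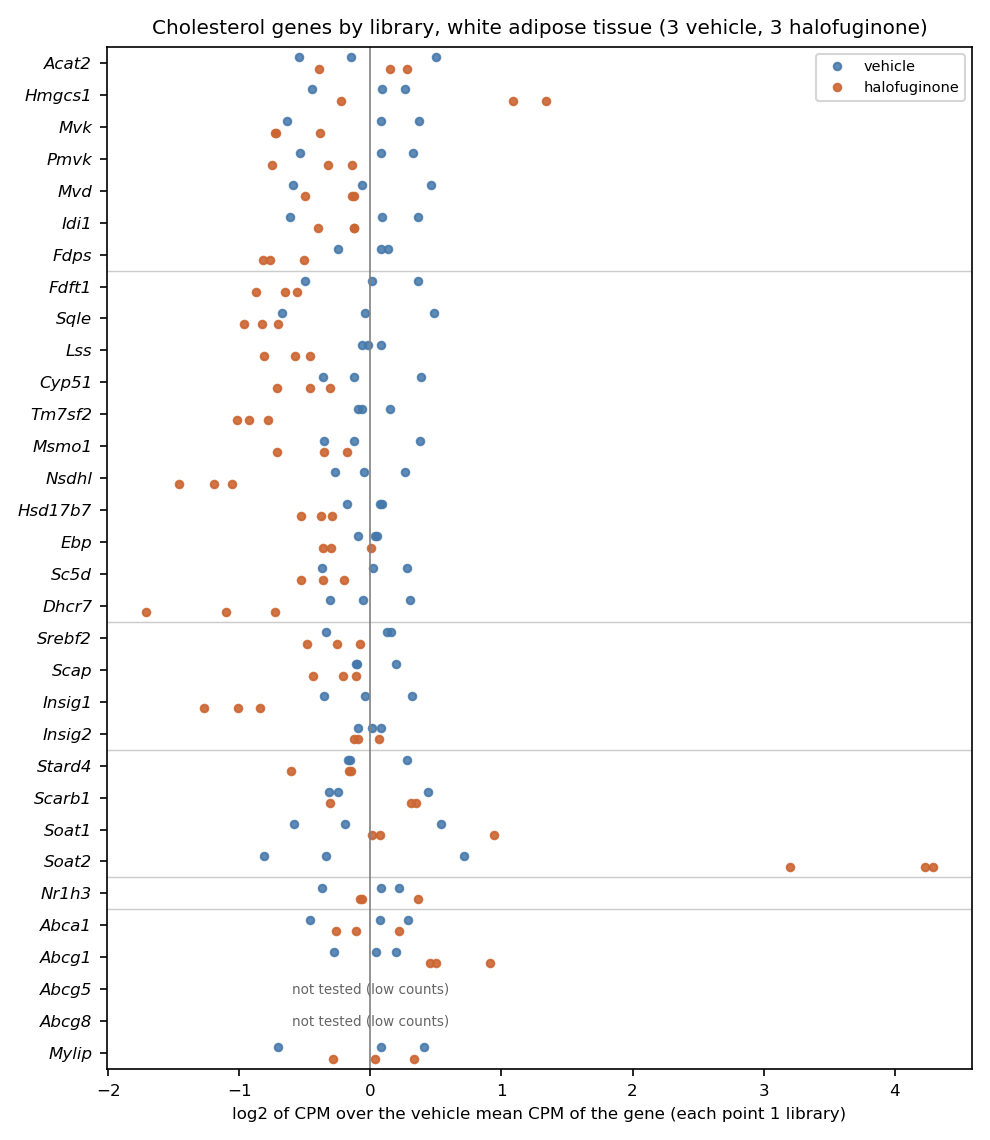
Each point is 1 fat library, placed on the x axis by the log2 of its CPM over the vehicle mean CPM of the gene, with genes in rows by role as for liver. The 3 halofuginone points of Nsdhl, Dhcr7, Insig1 and Tm7sf2 lie left of the 3 vehicle points, those of Soat2 lie far to the right, and Abcg5 and Abcg8 had too few counts to be tested.

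Insig1 was again the regulator with the largest difference in fat, at 145, 186 and 116 CPM in vehicle and 61.8, 83.0 and 73.8 CPM under halofuginone. The groups did not overlap, and the log2 fold change of -1.03 (edgeR, SE 0.218, adjusted p = 0.162) was close to that in liver. Insig2 stayed between 65.6 and 73.9 CPM in vehicle and 64.3 and 73.4 CPM under halofuginone. Srebf2 was at 66.0, 93.0 and 90.9 CPM in vehicle and 59.7, 69.9 and 79.0 CPM under halofuginone (log2 fold change -0.26, SE 0.194). Scap was at 54.9, 68.0 and 55.3 CPM in vehicle and 51.5, 43.8 and 55.0 CPM under halofuginone (log2 fold change -0.25, SE 0.163). Stard4, called lower in liver, was at 16.1, 15.98 and 21.8 CPM in vehicle fat and 11.8, 16.03 and 16.2 CPM under halofuginone (log2 fold change -0.29, SE 0.210). Halofuginone libraries of Srebf2, Scap and Stard4 reached into the vehicle range.

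Soat2 was barely detected in vehicle fat, with 8, 3 and 4 counts in the 3 libraries, and had 101, 118 and 51 counts under halofuginone. These correspond to 0.480, 0.166 and 0.231 CPM and to 5.72, 5.48 and 2.68 CPM. The groups lay far apart, and the log2 fold change was 3.96 (SE 0.570). Its edgeR adjusted p was 0.0954, so it was not called, while DESeq2 gave an adjusted p of 1.39e-07. Because 1 vehicle library was at 3 counts, the size of this ratio is poorly determined, and it was 1.44 on log2(FPKM + 1). Soat1 was at 197, 150 and 327 CPM in vehicle and 236, 430 and 226 CPM under halofuginone, with overlap (log2 fold change 0.41, SE 0.372). Scarb1 overlapped too, at 128 to 215 CPM in vehicle and 129 to 202 CPM under halofuginone.

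The tissues used the 2 acyltransferases differently. On the deposited FPKM scale, which accounts for transcript length, Soat2 was at 6.91 ± 0.628 and Soat1 at 1.88 ± 0.521 in vehicle liver (SD, n = 5), and Soat2 at 0.130 ± 0.0700 and Soat1 at 61.9 ± 19.1 in vehicle fat (SD, n = 3). Soat1 therefore stayed the main form in halofuginone fat, at a mean of 86.6 FPKM against 2.14 for Soat2. In halofuginone liver the means were 1.96 FPKM for Soat1 and 15.9 for Soat2. The tables of the tissues were normalized separately, so levels are compared between genes within a tissue. Other FPKM levels in vehicle liver ranged from 1.61 for Abcg1 to 120.1 for Insig2, with 95.2 for Sc5d and 88.2 for Ebp next below. In vehicle fat the members with the highest levels were Scarb1 at 63.1 FPKM, Soat1 at 61.9, Insig1 at 54.3 and Nr1h3 at 51.1, which do not differ beyond their spread of 12.2 to 21.5 FPKM (SD, n = 3).

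Of the LXR targets, 3 could be tested in fat, and their median log2 fold change was 0.05. Abcg1, which lay lower in 4 of 5 halofuginone livers, was at 242, 175 and 217 CPM in vehicle fat and 290.3, 398 and 299 CPM under halofuginone. All 3 halofuginone libraries were above every vehicle library (log2 fold change 0.64, SE 0.204, edgeR adjusted p = 0.279). Abca1 was at 285, 169.6 and 246 CPM in vehicle and 217, 272 and 195 CPM under halofuginone, and Mylip at 78.0, 98.1 and 45.3 CPM and 92.9, 60.7 and 75.8 CPM. Both overlapped, and their log2 fold changes were -0.04 (SE 0.239) and 0.05 (SE 0.305), the first turning positive and the second staying positive under scaling by library size alone. That scaling moved the median of all genes tested in fat from 0.01 to 0.08. Nr1h3 was at 98.3, 108 and 71.7 CPM in vehicle and 88.0, 88.6 and 119 CPM under halofuginone (log2 fold change 0.09, SE 0.214). Abcg5 had 1, 12 and 2 counts in vehicle fat and 3, 0 and 0 under halofuginone, and Abcg8 had 2, 3 and 3 and 0, 0 and 2, so neither was tested.

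Marker lists of cell types were read in fat too. Because 0 of all 14030 genes passed the test there, the 0 calls in these lists cannot show whether their levels differed. The 8 macrophage markers summed to 4465 to 9973 CPM in vehicle fat and to 2979 to 3208 CPM under halofuginone, lower without overlap, with 0 of the 7 tested called and Clec4f at or under 3 counts. The 8 adipocyte markers summed to 12010 to 22650 CPM in vehicle and 20190 to 24680 CPM under halofuginone, with 0 of 8 called. Abcg1, Abca1 and Soat1 are abundant in macrophages, and the part of the macrophage markers in the fat values was not tested. The 4 epididymis markers summed to 0.540 to 76.1 CPM in vehicle fat and 0.604 to 5.78 CPM under halofuginone, with 0 of the 2 tested called, and their part was not tested either. The 4 skeletal muscle markers summed to 89.9 to 170.2 CPM in vehicle fat and 50.2 to 59.8 CPM under halofuginone, without overlap and with 0 of 4 called. Acta1 made up most of this sum, and the part of the list was not tested.

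**Figure D3:**
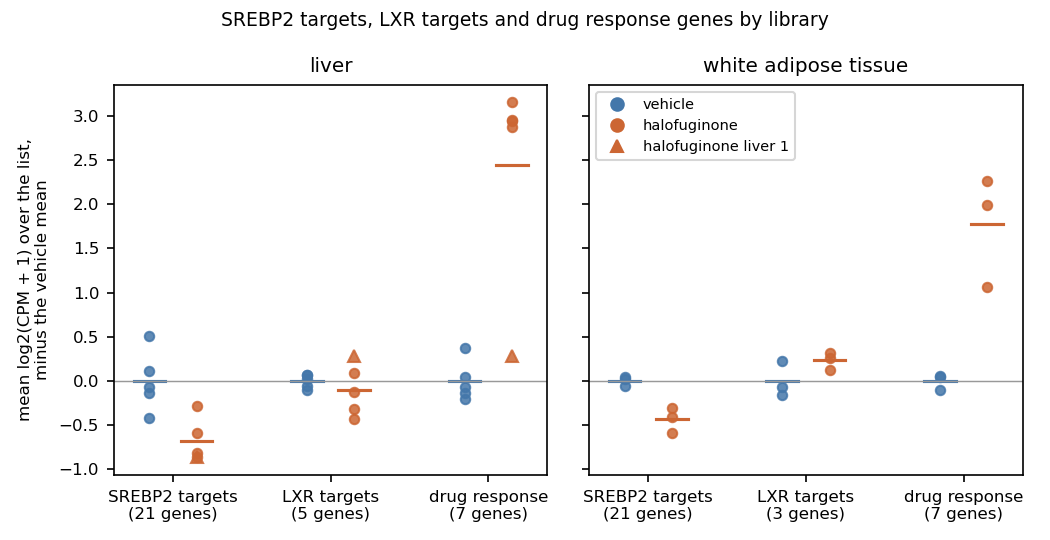
Each point is 1 library, placed on the y axis by the mean log2(CPM + 1) of a gene list minus the vehicle mean, for the SREBP2 targets, the LXR targets and the 7 genes of the amino acid response in liver (left) and fat (right), with group means as lines. SREBP2 targets lie lower under halofuginone in both tissues, with overlap in liver only, while halofuginone liver 1 (triangle) is within the vehicle range for the mean of the amino acid response genes.

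To ask whether halofuginone acted differently in the tissues, the liver log2 fold change was subtracted from that in fat, in a model of all 16 libraries. In this model 0.949% of 14853 genes were called. The test passed for 1 of the 32 members, Soat2, whose log2 fold change was 2.89 higher in fat (SE 0.566, edgeR adjusted p = 0.0323). That call was lost in 11 of 26 alternatives, over which the difference ran from 0.44 on log2(FPKM + 1) to 3.42 and its adjusted p from 8.33e-05 to 0.603. Leaving out any 1 of liver vehicle 2, 3 or 4, liver halofuginone 3, fat vehicle 2 or 3, or fat halofuginone 1 or 2 ended it. Abcg1 was next, with a difference of 1.08 (SE 0.250, edgeR adjusted p = 0.0518) and opposite signs in the tissues. It passed with an adjusted p of 0.00246 without halofuginone liver 1.

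For the SREBP2 targets the difference between tissues was called in 0 of 21 genes (4 of 21 at an unadjusted p under 0.05, near the 15.7% of all genes tested). The values of those 4 are given as a description. Hmgcs1 had the largest difference among them, 1.602 (SE 0.461, edgeR adjusted p = 0.106), followed by Idi1 with 1.32 (SE 0.505, edgeR adjusted p = 0.213) and Acat2 with 0.83 (SE 0.356, edgeR adjusted p = 0.270). These 3 early enzymes were called in liver and had unadjusted p-values above 0.05 in fat. Lss differed in the opposite sense, by -0.70 (SE 0.319, edgeR adjusted p = 0.298). For Insig1 the difference was 0.01 (SE 0.378) and for Nsdhl 0.26 (SE 0.356), with standard errors that leave room for differences of moderate size.

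**Figure D4:**
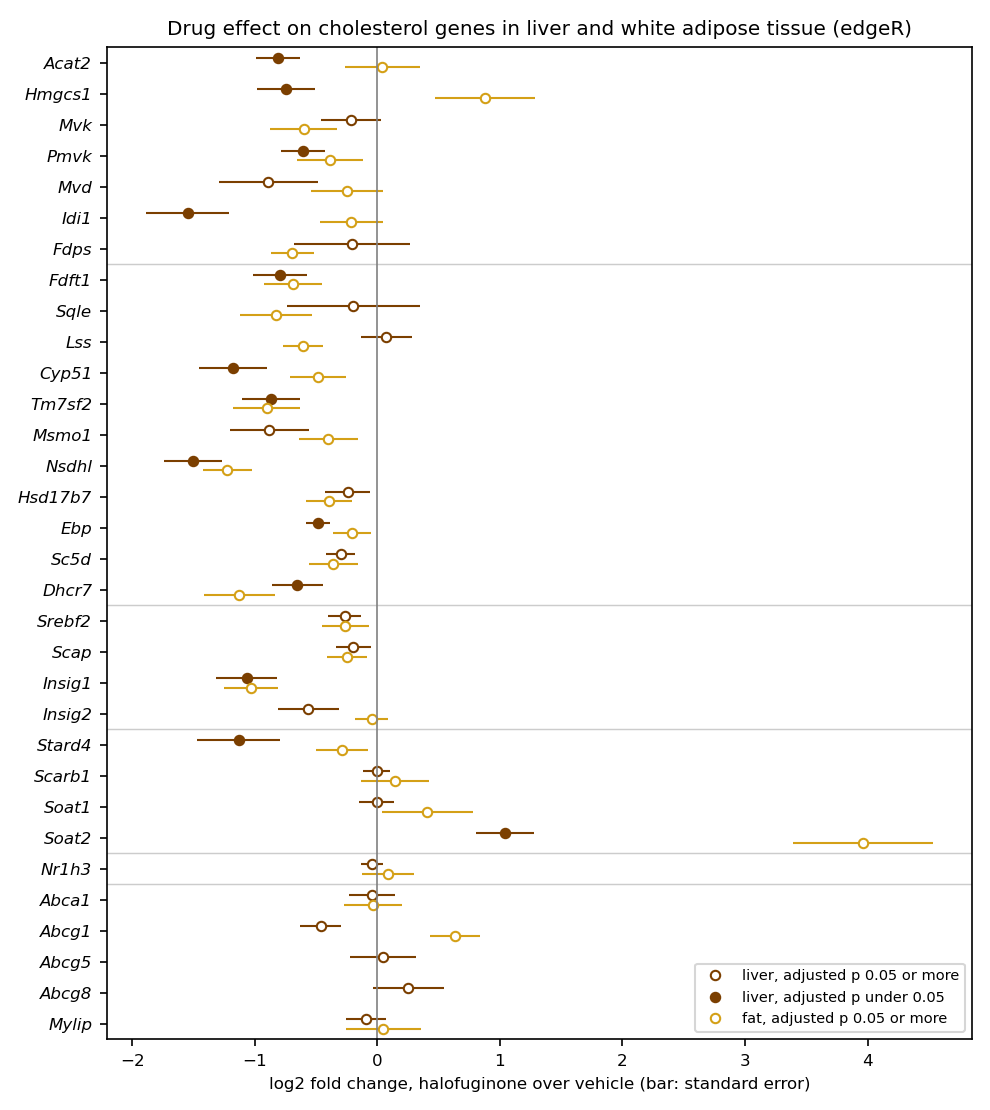
Points are edgeR log2 fold changes of halofuginone over vehicle for the 32 genes in liver (brown) and fat (gold), with bars of 1 standard error and filled points where the adjusted p was under 0.05. The 13 filled points are all in liver, 12 of them left of 0, and Soat2 lies at 1.04 in liver and 3.96 in fat.

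**Figure D5:**
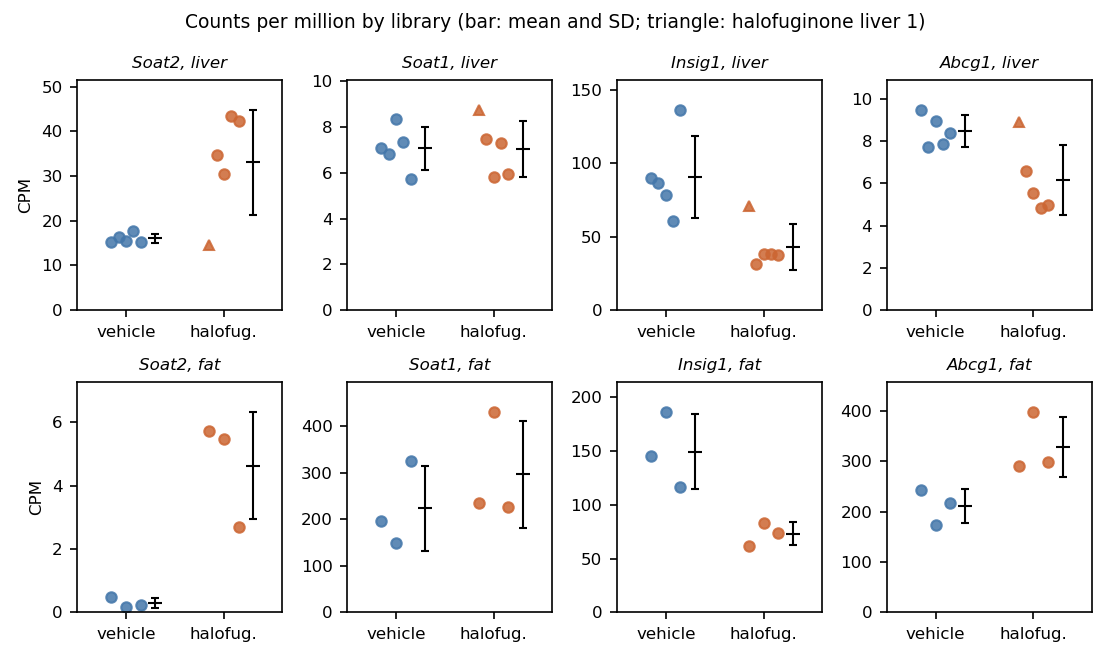
Each point is the CPM of Soat2, Soat1, Insig1 or Abcg1 in 1 library of liver (upper row) or fat (lower row), with the group mean and SD as a bar. Halofuginone liver 1 (triangle) lies apart from the other halofuginone livers for Soat2, Insig1 and Abcg1, and Abcg1 is lower in the other halofuginone livers and higher in halofuginone fat.

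A further 40 genes of the pathway that are not among the 32 were read from the same fits, 39 of them tested in each tissue. In liver 12 were called, 2 higher and 10 lower, where 12.7% of all genes tested were called higher and 10.5% lower, and their median log2 fold change was 0.04. Of 6 other SREBP targets, 5 had a negative log2 fold change and 2 were called lower, Acss2 and Rdh11. Tmem97 was the 1 with a positive value, 0.50 (SE 0.251, edgeR adjusted p = 0.158), with 4 of 5 halofuginone livers above every vehicle liver. Without halofuginone liver 1, which was below every vehicle liver, the value of Tmem97 was 0.67 (edgeR adjusted p = 0.00416). Acss2, which makes acetyl-CoA from acetate, went from 46.6 ± 6.79 to 20.4 ± 6.57 CPM (SD, n = 5), without overlap (log2 fold change -1.20, SE 0.212, edgeR adjusted p = 0.00635).

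All 3 oxysterol enzymes tested in liver were called, in both directions. Cyp7b1, which hydroxylates oxysterols on the acidic route to bile acids, was at 103, 211, 239, 94.1 and 179.8 CPM in vehicle and 235, 819.7, 1419, 507 and 1121 CPM under halofuginone. Halofuginone liver 1 was inside the vehicle range and the other 4 were above it (log2 fold change 2.31, SE 0.449, edgeR adjusted p = 0.00866), and without it the value was 2.52. Cyp27a1, the sterol hydroxylase that opens this route, was at 346 CPM in halofuginone liver 1, inside the vehicle range of 313 to 375 CPM, and at 124 to 207 CPM in the other 4 (log2 fold change -0.81, SE 0.250, edgeR adjusted p = 0.0389). Without halofuginone liver 1 the value of Cyp27a1 was -1.15. Cyp46a1, a cholesterol hydroxylase known mainly from neurons, was lower without overlap, from 5.30 ± 1.58 to 1.09 ± 0.805 CPM (SD, n = 5; log2 fold change -2.31, SE 0.451, edgeR adjusted p = 0.00866).

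Gramd1c, of a family that moves cholesterol from the plasma membrane to the endoplasmic reticulum, was higher, with 10.98 CPM in halofuginone liver 1 and 34.2 to 84.0 CPM in the other 4, against 7.56 to 15.5 CPM in vehicle (log2 fold change 2.15, SE 0.428, edgeR adjusted p = 0.00932), or 2.38 without halofuginone liver 1. Of 8 genes that partner LXR or are further LXR targets, 6 had a negative log2 fold change in liver and 2 a positive one. Their median was -0.38, against -0.05 for the 5 LXR targets described above. At an unadjusted p under 0.05 in edgeR's test, 3 of the 8 were lower and 1 was higher. Over all 12311 genes tested, 2219 were lower and 2594 higher at that threshold. After adjustment 2 were called, both lower. These were Pltp, a phospholipid transfer protein, and Scd1, the stearoyl-CoA desaturase, which SREBP1 drives too. Scd1 was at 5089, 7464, 2118, 8696 and 5008 CPM in vehicle and 1283, 1114, 1790, 2653 and 1657 CPM under halofuginone, so that only vehicle liver 3 reached the halofuginone range (log2 fold change -1.74, SE 0.363, edgeR adjusted p = 0.0105).

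In fat 0 of the 39 passed edgeR's adjusted threshold, and 7 had an unadjusted p under 0.05, a share near the 13.4% of all genes tested, so their values are a description. Acss2 had the largest negative value, from 47.9 ± 15.8 to 21.2 ± 3.26 CPM (SD, n = 3; log2 fold change -1.18, SE 0.271, edgeR adjusted p = 0.177), close to its value in liver. Lipa, the lysosomal lipase that frees cholesterol from its esters, had -1.05 (SE 0.338) and Pltp -0.75 (SE 0.153). Cyp7b1 had a positive value in fat as in liver, 1.25 (SE 0.460, edgeR adjusted p = 0.325), at a low level of 1.20 to 1.96 CPM in vehicle and 2.21 to 5.47 CPM under halofuginone.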

How the data were processed

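Per the labels' protocols, mRNA enriched on oligo(dT) was sequenced from 10 livers and 6 samples of white adipose tissue. The submitters' processing notes name fastp 0.18.0, Bowtie2 2.2.8, HISAT2, StringTie 1.3.1 and RSEM with build mm39, without the role of each, and strand handling is not given in the sources used here. Per the file headers, the authors deposited 1 table per tissue with a count and an FPKM value (fragments per length of the gene and size of the library) for each of 22322 genes and each library. The deposited counts are whole numbers, but 1 to 10 genes per liver library and 9 to 31 per fat library pair an FPKM above 0 with a count of 0, and the counts may therefore be rounded estimates. Reads shared with paralogs or overlapping genes may have been split in that counting. Symbols were found for 22267 identifiers. The promoters are from another build than the tables, and no coordinates were carried between builds.

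A separate edgeR 4.0.16 fit per tissue (R 4.3.3) used filterByExpr, TMM factors, glmQLFit and the two-sided glmQLFTest, with Benjamini-Hochberg adjustment over 12311 genes in liver and 14030 in fat. The tissue difference came from 1 fit of all 16 libraries (14853 genes), taken as independent. The tests were checked on simulated data. No 2 libraries of a group agreed within sampling noise (chi-square over its degrees of freedom was at least 29.7). A count of 0 allows up to 3 counts. Such floors cover counting error only. Alternatives used DESeq2 1.42.0, limma 3.58.1 on log2 of the deposited FPKM plus a pseudocount of 1 or 0.1 (genes with a mean of at least 1 FPKM, or no filter), other scalings and filters, a replicate block and leaving out each library. Every member is named. Of the other 40 pathway genes, those named are up to 4 with the largest changes per direction and tissue among genes called (in fat, at an unadjusted p under 0.05). Rdh11, Pltp and Tmem97, which was not called, were named in liver after their values were seen. Some genes that this rule names are not reported here. The members and lists were chosen with earlier results of these data known.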

Additional observations from a re-analysis of the deposited data

Results flagged for a closer look

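For each member in each group of 5 livers, the highest and lowest library was compared with the others by Dixon's ratio, the gap to the nearest library over the whole range (critical value 0.71). Of 64 such groups 3 exceeded it, and chance would give about 3.2. Vehicle liver 5 was high for Lss, at 26.3 CPM with 17.8 CPM in the next library (ratio 0.722), and for Dhcr7, at 29.7 CPM with 18.9 CPM in the next (ratio 0.72). Halofuginone liver 1 was high for Insig1, at 71.0 CPM with 38.2 CPM in the next (ratio 0.832). The drug effect on Soat2 differed between tissues, with a log2 fold change 2.89 higher in fat than in liver (SE 0.566, edgeR adjusted p = 0.0323), from 1.04 in liver to 3.96 in fat, where vehicle libraries held 3 to 8 counts. Over the 26 alternatives the difference ran from 0.44 on log2(FPKM + 1) to 3.42.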

How the results depend on the processing

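Across 64 results for single members, 27 alternative settings gave 1234 values, of which 1081 kept their direction and side of the threshold, 70 lost a call, 21 gained one and 62 changed sign. The sign changes were confined to 17 results with no call, and their cause was not tested. In liver, 13 members were called, 8 with limma on log2(FPKM + 1) without a filter and 7 to 16 when 1 library was left out (7 without vehicle 2, vehicle 5 or halofuginone 3, and 8 without halofuginone 4). Over all genes tested, 2850 of 12311 were called with all libraries and 2354 of 16587 with that limma setting. With 1 library left out, 1275 to 5312 genes were called. In fat, 0 members were called with all libraries, 7 with DESeq2 and 2 with all groups in 1 fit. Of all genes tested, these settings called 0 of 14030, 723 of 14030 and 334 of 14853. The SREBP2 median in fat was -0.31 with limma on log2(FPKM + 1), with and without the filter, and -0.50 to -0.40 when 1 library was left out. The LXR median in fat, over 3 genes, ran from 0.000622 to 0.31 in the same way, with 0.31 without vehicle 2. For the difference between tissues, 1 member was called, 3 with DESeq2, 2 with a filter of 1 CPM, 0 with limma on log2(FPKM + 1) with or without a filter, and 0 to 2 when 1 library was left out. Over all genes tested, the main fit called 141 of 14853, DESeq2 687 of 14853 and the filter of 1 CPM 159 of 13929. Limma called 280 of 11786 with the filter and 485 of 18972 without it. Leaving out 1 library gave 34 to 1053 genes.

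Same-numbered libraries showed no common deviation (correlations of -0.189 to 0.121 in liver and -0.598 to 0.184 in fat, and 1 of 5 livers and 0 of 3 fat samples matched best with their own number), so the numbers were not taken as pairs. With a replicate block, 14 liver members, 0 fat members and 0 members in the difference between tissues were called, and the liver value of Abcg5 was -0.0749. Of all genes tested, the block called 1901 of 12311 in liver, 0 of 14030 in fat and 20 of 14853 in the difference. With so few calls, the 0 in fat and in the difference are not a result about the members.

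With library size alone, values that changed sign were 0.0322 for Abca1 and 0.0205 for Insig2 in fat, and 0.121 for Abca1, 0.00306 for Fdps, 0.0539 for Mylip, 0.107 for Nr1h3, 0.145 for Scarb1 and 0.145 for Soat1 in liver. The median of all genes tested was then 0.0761 in fat and 0.173 in liver. With limma on log2(FPKM + 1), with or without a filter, they were 0.0450 for Abca1 in fat, and 0.0932 for Abca1, 0.0619 for Mylip, 0.113 for Nr1h3, 0.132 for Scarb1 and 0.0491 for Soat1 in liver. With a pseudocount of 0.1 the same genes, in the same order, had 0.0475, 0.0972, 0.0733, 0.115, 0.134 and 0.0769. Leaving out 1 library at a time gave, in liver, -0.221 to 0.0543 for Abca1, -0.177 to 0.210 for Abcg5, -0.601 to 0.0235 for Fdps, -0.0996 to 0.232 for Lss, -0.347 to 0.00200 for Mvk, -0.241 to -0.00946 for Mylip, -0.0967 to 0.00563 for Nr1h3, -0.0987 to 0.0438 for Scarb1, -0.114 to 0.0656 for Soat1 and -0.570 to 0.117 for Sqle. In fat it gave -0.220 to 0.136 for Abca1, -0.171 to 0.374 for Acat2, -0.440 to 0.0102 for Idi1, -0.0890 to 0.0109 for Insig2, -0.465 to 0.0573 for Mvd, -0.203 to 0.311 for Mylip and -0.0646 to 0.215 for Nr1h3. Depth limited Soat2, Abcg5 and Abcg8 in fat, where vehicle libraries held 1 to 12 counts of these genes.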
